A study of Mus musculus with 4 samples.

Results

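The 6 genes described here, Col2a1, Col9a1, Col9a2, Col9a3, Col11a1 and Col11a2, encode the chains of the cartilage collagens II, IX and XI, and they were chosen as the named set of these chains. All ATAC-seq peaks in a gene or within 50 kb of it were taken, which gave 526 of 455071 peaks, merged into 199 of 170558 sites, for 6 of the 20365 protein-coding genes with a peak in such a window. In ATAC-seq a transposase inserts sequencing adapters into accessible DNA, and a peak marks chromatin more open than its surroundings. The cells were chondrocytes of C57BL/6 mice, taken from the knee cartilage of pups at postnatal day 0 to 4 with no genetic alteration or drug. P0 chondrocytes (2 libraries) had spent less than 24 h in culture, and P8 chondrocytes (2 libraries), a culture model of dedifferentiation, had been passaged 8 times, each time after the cells had doubled. The peak names do not say which replicate a library is, so the libraries are called A and B within each passage.

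Collagen II is the main fibrillar collagen of hyaline cartilage and is a homotrimer of the Col2a1 chain. Collagen XI copolymerises with it and limits fibril width, with Col11a1 and Col11a2 as chains of its own. Collagen IX, built from the Col9a1, Col9a2 and Col9a3 chains, sits on the fibril surface and links it to other matrix molecules. SOX9, with SOX5 and SOX6, activates these genes in chondrocytes, and chondrocytes expanded in monolayer are known to lose the cartilage collagens and to gain collagen I.

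On GRCm38, Col2a1 lies at chr15:97975602-98004724, Col9a1 at chr1:24177589-24252738, Col9a2 at chr4:121039566-121055325, Col9a3 at chr2:180598102-180622192, Col11a1 at chr3:114030479-114220756 and Col11a2 at chr17:34038919-34066684. The windows also take in other genes, Tmem106c and Senp1 at Col2a1, Col19a1 at Col9a1, Smap2 and Zmpste24 at Col9a2, 4 genes at Col9a3 and 7 at Col11a2, while that of Col11a1 holds no other protein-coding gene.

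Peaks within 1 kb of either end of marker genes were counted to describe the cells. The share of all genes with such a peak was not computed, so these counts do not test the label chondrocyte. Of 8 chondrocyte markers, 8 and 7 had such a peak in the P0 libraries and 5 and 6 in the P8 libraries. Of 6 fibroblast markers, 6 and 6 had one at P0 and 5 and 4 at P8. Of 3 muscle markers, 2 had one in each P0 library and 1 in each P8 library, of 4 endothelial markers 2 had one in every library, and of 5 blood and macrophage markers 2 had one in each P0 library and 1 in each P8 library. The muscle gene Myf5, the endothelial genes Pecam1 and Cdh5 and the blood cell genes Ptprc, Csf1r and Adgre1 had no peak in any library. The muscle gene Myod1, the endothelial genes Kdr and Tek and the blood cell gene Spi1 had one in every library. Des (muscle) and Cd68 (macrophage) had one in both P0 libraries and in no P8 library. A bulk profile does not tell a smaller share of cells from less open chromatin in each cell, and the part of other cells in the results was not tested. The P0 libraries were the deeper ones, with a genome-wide background of 194 and 162 tags per 10 kb against 140 and 134 at P8, and with 145703 and 119974 peaks in all against 89610 and 99784.

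The collagen loci were tagged more densely around their peaks at P0 than at P8. The peak caller counts the tags in 10 kb around each peak as its local background. This density, divided by the genome-wide background of the same library, measures openness over 10 kb and allows for depth. The window includes the peak itself and any neighbouring peaks, so the chromatin between peaks was not measured apart. At the densest peak in or within 1 kb of each gene, all 6 collagens were denser in both P0 libraries than in both P8 libraries, by 2.33 to 3.27 times and a median of 2.60. Over all 15320 genes with such a value in every library, 72.8% were higher in both P0 libraries, 7.35% in both P8 libraries, and the median P0 to P8 ratio was 1.22. Ranked by this ratio the 6 collagens lay at places 17 to 81 of 15320, the lowest of them within the top 0.529%.

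Col2a1 was the most densely tagged. Its densest window held 6381 and 5279 tags per 10 kb in the P0 libraries and 1594 and 1988 in the P8 libraries, which is 32.9 and 32.5 times the genome background at P0 and 11.4 and 14.8 times at P8. The ratio was 2.50 ± 0.46 (SD from the spread of 2 libraries for each passage). By its P0 mean Col2a1 had the highest density of all 15320 genes, and by its P8 mean it was at place 30. The peak with this value lay just outside the lower-coordinate end of the gene, with its summit 202 and 193 bp beyond that end in the P0 libraries and 252 and 655 bp beyond it in the P8 libraries. At the upper end the density was 16.02 and 14.7 times the genome background at P0 and 7.38 and 8.91 times at P8. Each P0 library had 1 peak between the gene ends, at the upper end. The 10 kb windows around the peaks at the ends reach part of the way into the gene, so at P0 the density over its middle was not measured.

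The collagen IX genes were less dense than Col2a1 in every library, with P0 to P8 ratios of 2.54 to 3.27. Col9a3 had 10.4 and 10.6 times the genome background at P0 and 3.16 and 3.27 times at P8, a ratio of 3.27 ± 0.09, the highest of the 6 and the 17th of all genes. Col9a1 had 8.75 and 8.84 times at P0 and 2.53 and 3.15 times at P8, a ratio of 3.10 ± 0.48. In Col9a1 the summit of the densest peak lay 17891 to 18454 bp inside the gene in 3 libraries and 53057 bp inside it in P0 library A. Col9a2, the shortest of the genes, had 7.01 and 7.41 times at P0 and 2.81 and 2.86 times at P8, a ratio of 2.54 ± 0.11. The P0 and P8 values of each of these genes lay well apart, with a gap several times the difference between the libraries of a passage.

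The collagen XI genes had P0 to P8 ratios of 2.33 and 2.66. Col11a1, the longest gene of the set, had 10.9 and 10.6 times the genome background at P0 and 4.21 and 5.02 times at P8, a ratio of 2.33 ± 0.29, and the summit of the densest peak lay 1403 to 1512 bp inside the lower end. Col11a2 had 10.2 and 10.2 times at P0 and 3.60 and 4.07 times at P8, a ratio of 2.66 ± 0.23. Apart from Col2a1, the genes held places 61 to 418 by the P0 mean and places 935 to 4391 by the P8 mean. The fewest tags behind any of these 24 values were 354, for which counting error alone is 5.31%. An exact two-sided permutation test over 2 against 2 libraries cannot give a p below 0.333, which all 6 genes reached, and it is not evidence of a difference.

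**Figure D1:**
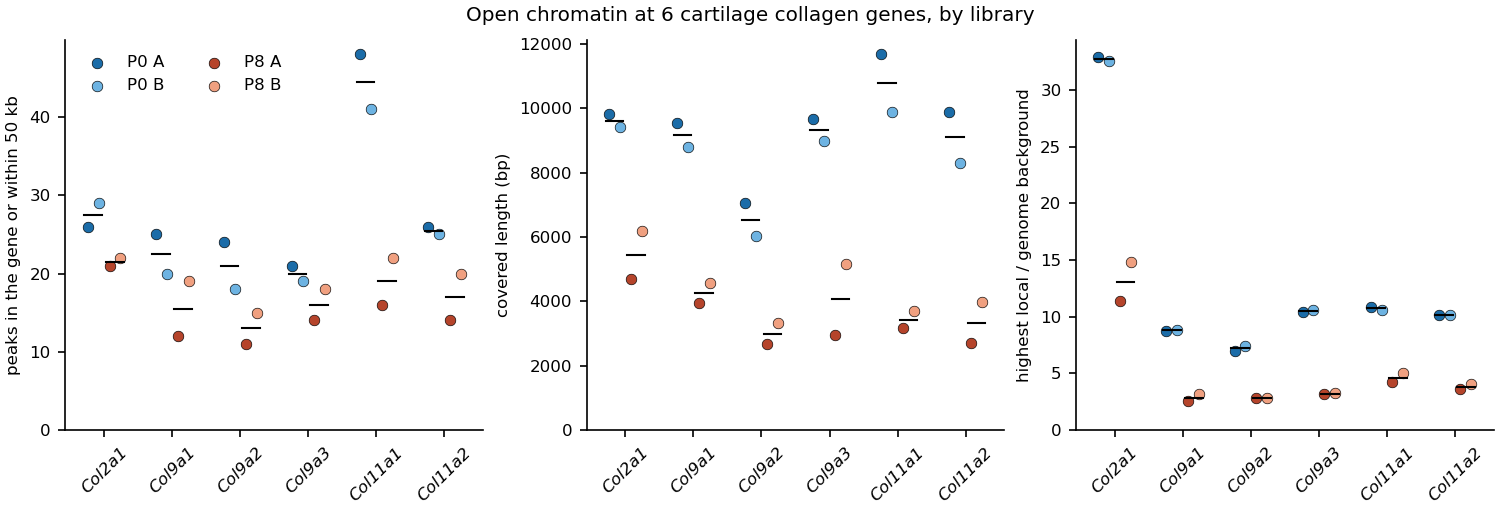
Number of peaks in the gene or within 50 kb (left), summed covered length in bp (middle) and highest local background in or within 1 kb of the gene as a multiple of the genome background (right) in the P0 (blue) and P8 (red) libraries A (dark) and B (light), with the mean of each passage as a line. Both P0 points lie above both P8 points for every gene in all 3 panels, and Col2a1 at P0 stands at 32.9 and 32.5 in the right panel.

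Along the loci the density was higher at P0 at peaks inside the collagen genes, at Col2a1 at its upper end alone. It was also higher at peaks beside several of them. At Col9a1, the peaks between the gene ends had a median local background of 5.08 and 4.64 times the genome background at P0, and none was below 2.85 times. At P8 the medians were 1.09 and 1.39 times, and 5 of 9 and 9 of 15 peaks were below 1.5 times. At Col11a1 the medians inside the gene were 4.07 and 3.47 times at P0 and 1.70 and 2.06 times at P8. At Col11a2 a cluster of sites just above the gene, from chr17:34068888-34069481 to chr17:34070624-34070967, had 11.2 to 12.1 times the genome background at P0. The P8 library B held 2 peaks there at 2.62 and 2.65 times, and P8 library A held none. At Col2a1 a further cluster nearest to the neighbouring gene Senp1, which encodes a SUMO protease, reached 11.4 and 11.1 times at P0 and 4.16 and 5.52 times at P8 in the site at chr15:98030840-98031295. These clusters were chosen after their values were seen.

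**Figure D2:**
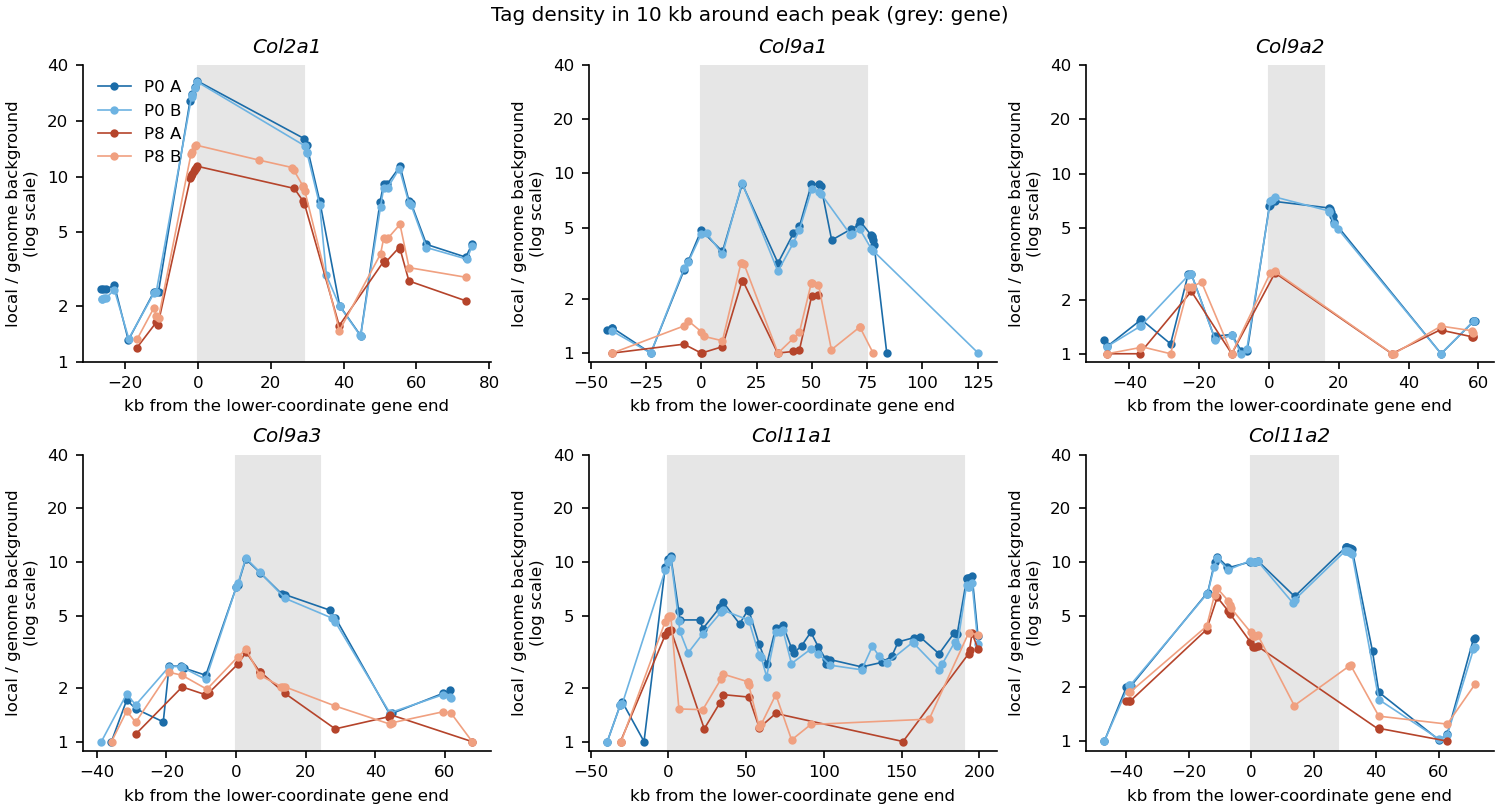
Local background as a multiple of the genome background (log scale) at every peak of each locus against the distance of the summit in kb from the lower-coordinate end of the gene, with the gene in grey and 1 line for each library. The P0 lines (blue) run above the P8 lines (red) over each gene. At Col2a1 each P0 library had 1 peak inside the gene, so its P0 lines there join peaks at the gene ends. At Col9a1 the medians of the peaks inside the gene were 5.08 and 4.64 at P0 and 1.09 and 1.39 at P8. Lines join the peaks and show no measurement between them.

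All 6 genes had peaks at their lower-coordinate end in both P0 libraries, and Col2a1 also at its upper end. These sites are described because the start of a gene, where transcription begins, lies at a gene end. The RefSeq table used carries no strand, and no promoter sequence was used for Col2a1 and Col9a3, so their start ends were not placed. The dense lower end of Col2a1 is therefore not to be read as its start. RefSeq promoter sequences place the starts of Col9a1, Col9a2, Col11a1 and Col11a2 at the lower end. The bases just outside the lower end of 3 of these genes are given below on the plus strand of GRCm38.p6, from RefSeq, to show the sequence at their start-side sites, with GC boxes (GGGCGG on either strand) in capitals. For Col9a1 and Col11a1 they stop at the end of the annotated gene, short of the start of the listed promoter.
Col9a1, chr1:24177360-24177588: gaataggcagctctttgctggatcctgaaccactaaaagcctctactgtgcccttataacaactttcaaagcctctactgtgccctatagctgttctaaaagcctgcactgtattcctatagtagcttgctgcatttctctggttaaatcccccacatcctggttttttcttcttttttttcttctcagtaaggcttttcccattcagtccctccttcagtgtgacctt
Col9a2, chr4:121039316-121039565: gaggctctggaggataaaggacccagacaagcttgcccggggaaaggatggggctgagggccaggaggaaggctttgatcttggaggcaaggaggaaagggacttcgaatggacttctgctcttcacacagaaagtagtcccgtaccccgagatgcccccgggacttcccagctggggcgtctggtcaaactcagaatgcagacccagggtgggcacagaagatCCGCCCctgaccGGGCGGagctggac
Col11a1, chr3:114030290-114030478: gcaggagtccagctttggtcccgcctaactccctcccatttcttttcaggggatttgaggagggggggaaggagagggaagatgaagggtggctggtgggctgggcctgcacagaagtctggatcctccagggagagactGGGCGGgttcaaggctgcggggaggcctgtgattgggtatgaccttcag
The first is poor in G and C, at 43.2%, and holds 0 CpG. The Col9a2 stretch has 60.4% G and C with 9 CpG, and that of Col11a1 has 60.3% with 3 CpG, beside a median of 52.4% over all 250-base upstream stretches.

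The Col9a1 start had the greatest drop of the sites held by all 4 libraries. Its summit pileup, the number of tags stacked at the highest point, was 40.3 and 45.6 times the genome background at P0. At P8 it was 9.78 and 12.3 times, a ratio of 3.90. These summits were 57 and 54 tags at P0 and 10 and 12 tags at P8, so the ratio is imprecise. The peak covered all 250 bases upstream of the start of the first listed promoter, at chr1:24177360-24177609, in both P0 libraries and in P8 library B, and 78 of them in P8 library A. A second RefSeq start of Col9a1, inside the gene, had a wide site just above it at chr1:24195250-24197031, with 58.6 and 63.3 times the genome background at P0 and 23.5 and 27.6 times at P8. The 250 bases upstream of that start held no peak in any library.

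At the Col11a1 start the site was also present in all libraries, at chr3:114029947-114030913, with 60.7 and 59.1 times the genome background at P0 and 36.2 and 37.8 times at P8. The peak covered all 250 upstream bases in every library, but it was 841 and 846 bp long at P0 and 539 and 430 bp at P8. Col11a2 had 46.6 and 48.9 times at P0 and 20.5 and 19.4 times at P8 in the site at its lower end. There the 250 bases before the listed promoter's start were covered by 250 and 177 bases at P0, and by no peak at P8. The P8 peaks lay on either side of them. In P8 libraries A and B the summits were 279 and 153 bp outside the lower end, and 0.782 and 0.661 kb inside it.

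Col9a2 and Col9a3 had lower-end sites that were missing from P8 library A or from both P8 libraries. The Col9a2 site at chr4:121039498-121040297 had 24.7 and 28.7 times the genome background at P0 and 15.3 times in P8 library B, and P8 library A had no peak. Of the 250 upstream bases printed above, the P0 library A peak covered 68, and no peak of the other libraries reached them. The next site, at chr4:121040741-121041760, was held by all libraries, with 50.9 and 59.1 times at P0 and 27.4 and 33.7 times at P8. The Col9a3 site across its lower end, at chr2:180597734-180598393, was its strongest site held by both P0 libraries and no P8 library, with 33.2 and 37.1 times the genome background. Going by the local background of the nearest P8 peak, a P8 peak there would have needed 10 tags in either library. That is 9.78 and 10.2 times the genome background. At 0.51 to 0.60 kb inside the same end every library held a peak. Its summit was 22.6 and 27.8 times the genome background at P0 and 15.6 and 18.4 times at P8.

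At Col2a1 the site at the upper end, at chr15:98004389-98005073, had 60.04 and 54.9 times the genome background at P0 and 32.3 and 33.7 times at P8. The site just outside the lower end, at chr15:97974348-97975510, had 65.7 and 76.0 times at P0, the highest summit of all the collagen sites, and 33.3 and 41.9 times at P8. Within 1 kb of either end, all 6 genes had a peak at P0 and 5 of them in every library, with Col9a2 missing from P8 library A. The upper ends of the other 5 genes had no peak within 1 kb in any library.

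Of 5 RefSeq upstream stretches of 4 members, 3 held the GC box GGGCGG, which 32.7% of all 32851 promoter stretches of the same length held on either strand. None of the 5 held ACAAAG or ACAATG, cores bound by SOX factors, found in 16.5% and 10.7% of all stretches. None held TGANTCA, the AP-1 motif, or TGTGGT, the RUNX core, found in 6.75% and 14.0%. No entry was used for Col2a1 and Col9a3.

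By number of peaks, both P0 libraries also exceeded both P8 libraries at all 6 genes, against a background of 48.3% of 20365 genes, and 3.95% the other way. Summed over the genes there were 161 ± 12.7 peaks at P0 and 102 ± 19.8 at P8 (SD, n = 2 each), a ratio of 1.58 ± 0.33. The margin was wide at Col11a1, with 48 and 41 peaks at P0 and 16 and 22 at P8. It was 1 peak at Col9a3, with 21 and 19 against 14 and 18, and 1 at Col9a1, with 25 and 20 against 12 and 19. Col2a1 had 26 and 29 peaks at P0 and 21 and 22 at P8, Col9a2 had 24 and 18 against 11 and 15, and Col11a2 had 26 and 25 against 14 and 20. The median ratio of the 6 was 1.48, beside 1.28 over all genes and 1.32 over the 3517 genes with at least 68 peaks over the 4 libraries. The share of those 3517 genes with more peaks in both P0 libraries was not computed, so 6 of 6 is not shown to be particular to the collagens. As a share of all peaks of each library the summed ratio was 1.13, and Col2a1 and Col9a3 had a smaller share at P0 than at P8, at ratios of 0.922 and 0.897.

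The covered length, which sums the width of the peaks, separated the passages further. All 6 genes had more base pairs under peaks in both P0 libraries, against 85.9% of all genes, and 1.86% the other way. The sum was 54493 ± 4422 bp at P0 and 23522 ± 4791 bp at P8, a ratio of 2.32 ± 0.51. Col11a1 had the highest ratio, 3.14 ± 0.50, with 11667 and 9874 bp in the P0 libraries against 3168 and 3687 bp. Col11a2 followed at 2.73 ± 0.81, with 9894 and 8282 bp against 2696 and 3974 bp. The collagen IX genes had ratios of 2.15 for Col9a1, 2.18 for Col9a2 and 2.29 for Col9a3, and Col2a1 had the lowest at 1.77 ± 0.35, with 9822 and 9399 bp against 4680 and 6187 bp. The median of the 6 was 2.24, beside 1.54 over all genes and 1.60 over the 3517 genes with at least 68 peaks over the 4 libraries, the number at the collagen gene with the fewest. Among those genes 97.1% had more covered length in both P0 libraries, so the direction at the collagens is the common one and the count of 6 of 6 is not particular to them. As a share of all covered length of a library the summed ratio was 1.41.

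Inside the Col2a1 gene body the number of peaks was higher in both P8 libraries, and the covered length overlapped between the passages. The P0 libraries held 1 peak each between the gene ends and the P8 libraries 3 and 5, and peaks covered 336 and 270 bp in the P0 libraries against 334 and 664 bp in the P8 libraries. Within 10 kb of the gene the ratio of the number of peaks was 0.818. The site at chr15:98001883-98002121, 2722 bp from the upper end, had a peak in both P8 libraries and in no P0 library, with summits of 25.4 and 29.6 times the genome background. From the local background of the nearest P0 peaks, a peak at that place would have needed 39 and 32 tags at P0, 27.5 and 27.0 times the genome background. The lower of the P8 summits would not have been called at P0 and the higher one would have been just past the limit, so the missing P0 peaks do not show lower openness there. The other 5 genes kept more covered length at P0 between their ends, with Col9a1 at 6122 and 5985 bp against 3124 and 3533 bp and Col11a1 at 7220 and 6136 bp against 1789 and 2280 bp.

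The 199 merged sites were sorted by the libraries that held a peak. Both P0 libraries and no P8 library held 42 sites (21.1%), where the share over 140253 sites near any gene was 16.7%. Both P8 libraries and no P0 library held 4 (2.01%, background 1.6%), all 4 libraries held 56 (28.1%, background 34.5%), and 97 had other patterns. Sites of both P0 libraries alone were 13 of 61 at Col11a1, 11 of 32 at Col2a1, 7 of 26 at Col11a2, 5 of 28 at Col9a2, 4 of 29 at Col9a1 and 2 of 23 at Col9a3. At Col11a1 a further 24 sites were held by a single P0 library, 16 by A and 8 by B, and many of its P0 peaks were therefore not repeated between the libraries.

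**Figure D3:**
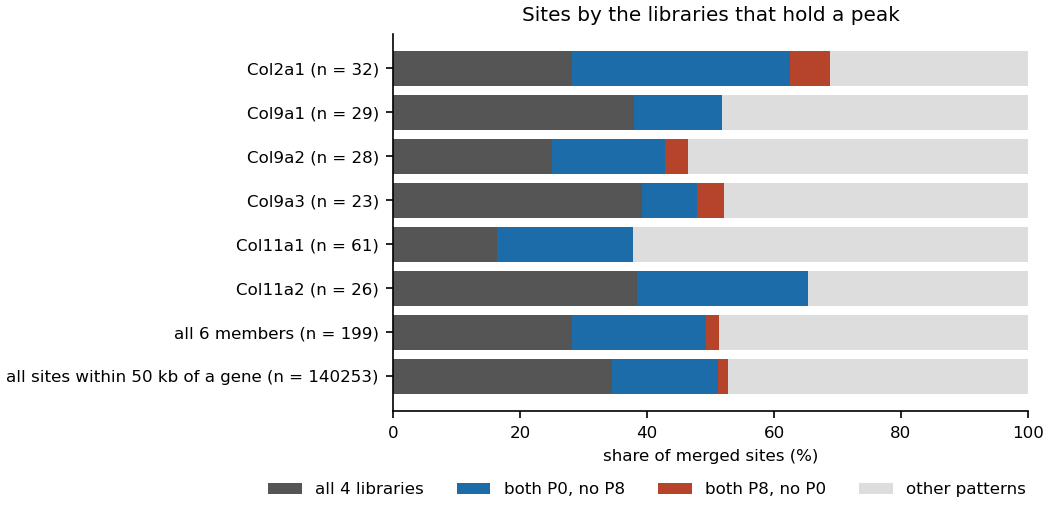
Share of merged sites (%) held by all 4 libraries (dark grey), by both P0 libraries and no P8 library (blue), by both P8 libraries and no P0 library (red) or in other patterns (light grey), for each gene, the 6 genes together and all sites within 50 kb of a protein-coding gene. The blue share is 21.1% for the 6 genes and 16.7% for all sites, and the red share is 2.01% and 1.6%.

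The strongest of the P0-only sites of each gene by fold enrichment over the local background were the following. Col9a1 had one 22599 bp below the gene, at chr1:24154603-24154990, with 9.52 and 8.70. Col11a1 had one 39096 bp below, at chr3:113990907-113991383, with 7.04 and 8.70, and Col2a1 had one 15511 bp above, at chr15:98020235-98020454, with 5.75 and 7.99. Going by the local background of the nearest P8 peaks, a P8 peak at these distal sites would have needed 6 or 7 tags, except 12 tags in P8 library B at the Col2a1 site. Those nearest peaks were 5434 to 14965 bp away, beyond the reach of a 10 kb window around a peak. The limits at the sites themselves were therefore not measured. Col11a2 had its strongest 46767 bp below, nearer to the histocompatibility gene H2-K1, with 7.04 and 6.87, and Col9a2 had one 7859 bp below, at chr4:121031554-121031707, with 5.69 and 5.03. The Col9a3 site lay across its lower end, as given above, with 4.22 and 4.65.

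The strongest P0-only site of each gene, picked from 42 such sites and given above, had a mean fold enrichment of 4.44 to 9.11 over the P0 libraries. A P0-only site that was not picked, at chr3:114037553-114037831 in Col11a1, had 2.86. The 4 sites of both P8 libraries alone, all of which are given, had 2.66 to 5.25 over the P8 libraries, so these ranges do not compare the classes. Apart from the one inside Col2a1, they lay at chr15:97958710-97958980 near Tmem106c, with fold enrichment of 4.07 and 5.22, at chr4:121074752-121074931 inside Zmpste24, with 4.45 and 4.55, and at chr2:180665868-180665966 inside Dido1, with 4.94 and 5.56. So 3 of the 4 were at neighbouring genes, and Col9a1, Col11a1 and Col11a2 had none.

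Sites with a peak in all 4 libraries allow the same place to be compared at both passages. Of the 56 such collagen sites, 51 had a higher summit over the genome background in both P0 libraries and 2 in both P8 libraries, where 51.8% and 14.4% of 48325 such sites near any gene did. The median P0 to P8 ratio was 1.60, beside 1.19 over all sites. Of the 32 sites that lie in or nearest to the collagen genes, 31 had the higher summit at P0, with a median ratio of 1.81. By gene the median was 2.17 at Col9a1 over 11 sites, 1.63 at Col2a1 over 9, 1.53 at Col11a1 over 10, 1.46 at Col9a3 over 9, 1.44 at Col11a2 over 10 and 1.43 at Col9a2 over 7. The 2 exceptions, higher at P8, were a site above Col11a1 at chr3:114229498-114229867, with 16.2 and 16.9 times the genome background at P0 and 20.5 and 24.5 times at P8, and a site nearest to Zmpste24 in the Col9a2 window, with a ratio of 0.527.

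Peaks at the shared sites were also wider at P0, in 45 of 56 against a background of 59.4%, and narrower in 2 against 5.13%. The median ratio of length was 1.51, beside 1.28 over all sites.

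Fold enrichment, which divides the summit by the local background, did not follow the summits. At 18 of the 56 sites it was higher in both P0 libraries, at 26 it was higher in both P8 libraries, and the rest overlapped. Over all sites 50.1% were higher at P0 and 11.2% at P8, and the median ratio was 1.15, beside 0.961 at the collagens. Among the 32 sites in or nearest to the collagen genes, 5 were higher at P0 and 21 at P8, with a median ratio of 0.822, while their local background had a median ratio of 2.65. Both the summit and the 10 kb window around it, which includes the peak, were therefore higher at P0, and the window by more. A site in the kilobases just inside the lower end of Col9a3, at chr2:180600662-180601099, gives an example. Its summit was 36.0 and 34.6 times the genome background at P0 and 30.3 and 23.5 times at P8, its local background was 10.4 and 10.6 times at P0 and 3.16 and 3.27 times at P8, and its fold enrichment came to 3.30 and 3.10 in the P0 libraries but to 7.57 and 5.71 in the P8 libraries.

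**Figure D4:**
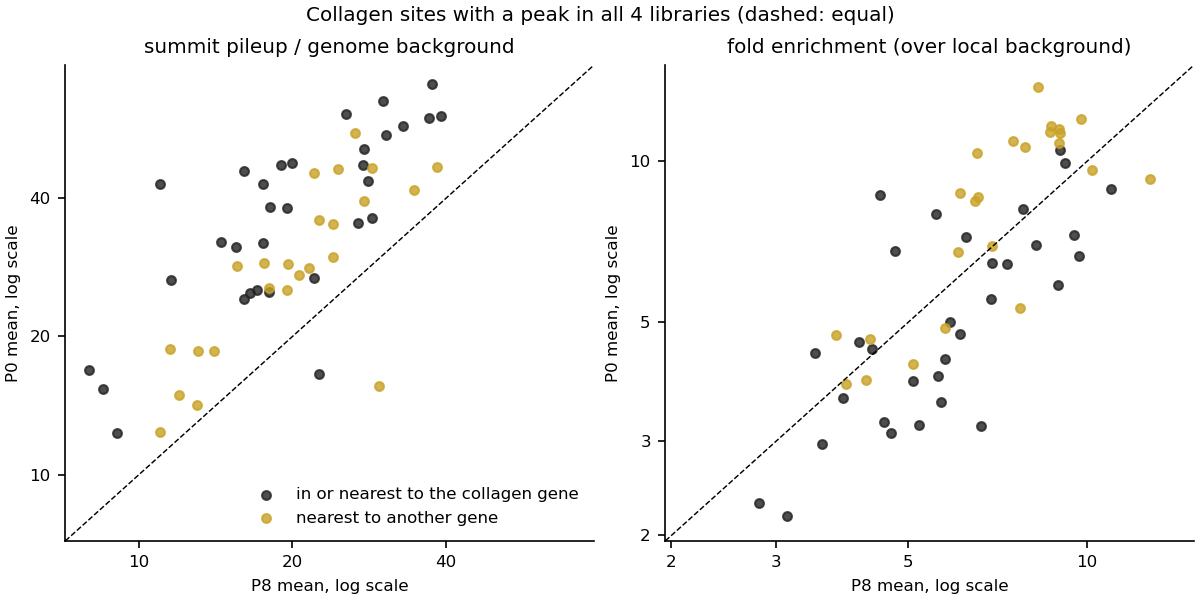
Mean over the P0 libraries against mean over the P8 libraries (log scales) of summit pileup over the genome background (left) and fold enrichment over the local background (right) at the 56 collagen sites with a peak in all 4 libraries, black for sites in or nearest to the collagen gene and yellow for sites nearest to another gene, with equality as a dashed line. On the left 51 sites have both P0 libraries above both P8 libraries, and on the right 18 do and 26 have the reverse.

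The highest value in each window showed the same split. The highest summit over the genome background was higher in both P0 libraries at all 6 genes, against 68.4% of all genes and 5.43% the other way, with a median ratio of 1.72 beside 1.22. The highest fold enrichment was higher in both P0 libraries at Col2a1, Col9a1 and Col11a2, against a background of 67.7%. It was higher in both P8 libraries at Col11a1, against 3.97%, and it overlapped at Col9a2 and Col9a3. Col11a1 had 8.58 and 9.20 at P0 and 10.1 and 11.8 at P8, at a site 69181 bp inside the gene. For the other 5 genes the site with the highest P0 fold enrichment lay outside the gene, 11189 to 39932 bp from it, and was nearest to Tmem106c, Fam135a, Smap2, Mrgbp and H2-Oa. The one of Col9a1, at chr1:24137129-24137657, had 13.9 and 13.6 at P0 and 6.43 and 10.1 at P8.

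Lists of related genes were described with the same measures. The fibrillar collagens of fibroblasts had a median ratio of the densest local background of 0.883 over 5 genes. Of these, 0 were higher in both P0 libraries, where 72.8% of all genes were. In both P8 libraries 1, Col1a1, was higher, where 7.35% of all genes were. Col1a1, the main chain of collagen I, had 2.75 and 2.30 times the genome background at P0 and 4.26 and 4.49 times at P8, a ratio of 0.577. The covered length of this list had a median ratio of 1.26, from 0.998 at Col3a1 to 1.77 at Col5a1. Basement membrane and network collagens had a median ratio of local background of 1.24 and of covered length of 2.09, from 1.66 at Col8a1 to 2.59 at Col15a1, so in covered length they were close to the cartilage collagens and in density they were not.

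Among 10 cartilage matrix partners the covered length was higher in both P0 libraries at 10, where 85.9% of all genes were, with a median ratio of 2.14, from 1.38 at Fmod to 3.31 at Snorc. Their density, measured in every library for 7, had a median ratio of 1.44 and was higher at P0 at 6, where 72.8% of all genes were. Matn1, Chad and Snorc lacked a peak in or within 1 kb of the gene in some library and are left out. Matn1 and Snorc had the highest ratios of covered length in the list, 3.28 and 3.31, so the median density does not cover them. Acan, which encodes the proteoglycan aggrecan, had 9.86 and 9.73 times the genome background at P0 and 2.86 and 3.20 times at P8, and its ratio of 3.24 lay within the range of the cartilage collagens. The SOX trio had higher covered length at P0 at all 3 genes, against the same 85.9% of all genes, with ratios from 2.18 at Sox5 to 2.46 at Sox9 and a median of 2.39, and a median ratio of density of 1.64. Of 17 collagen processing genes, which encode hydroxylases, chaperones, propeptide proteinases and crosslinking enzymes, 15 had more covered length at P0, a share close to the 85.9% of all genes, with a median ratio of 1.54 that equals that of all genes, from 1.097 at Lox to 2.14 at Adamts3, and the median ratio of density was 1.35.

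**Figure D5:**
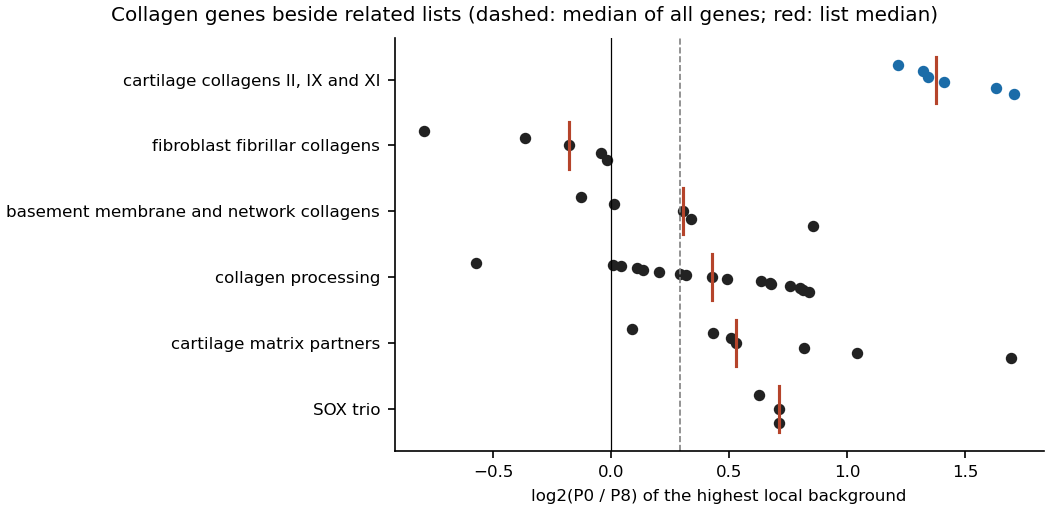
Log2 of the P0 to P8 ratio of the highest local background in or within 1 kb of each gene, by list, with 1 point for each gene that has a value in every library. Matn1, Chad and Snorc have none and are not shown. The list median is in red, no difference is a solid line and the median of all genes is a dashed line. The 6 cartilage collagens (blue) lie at ratios of 2.33 to 3.27, and the fibroblast collagens at 0.577 to 0.989.

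The genes whose covered length in the 4 libraries was nearest to the mean of the 6 collagens, by distance on the log2 scale, were Ldb3 at 0.11, Ssbp3 at 0.14 and Stard10 at 0.16. Their P0 to P8 ratios were 2.46, 2.22 and 2.24.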

How the data were processed

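The authors aligned paired-end ATAC-seq reads with Bowtie2 to mm10, as the submitters' processing notes give it, and called peaks with MACS2 at default parameters in each library. Per the file headers, each deposited peak has the −log10 of a p-value and of a q-value, a fold enrichment (summit over local background) and a summit pileup, a signal in tags as counted. Another table, with the authors' log2 fold change, p-value and FDR of P0 against P8, also deposited, was not used. MACS2 by default keeps 1 tag at each position and strand, which would understate the densest loci.

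Peaks were assigned to libraries by name, which carries no replicate number (0 columns of values per library were left unused). Genes came from the RefSeq table of GRCm38.p6 (21887 protein-coding). Peaks overlapping by at least 1 bp were merged. The local background was recovered from pileup and fold enrichment. It was a whole number of tags of 73 bp in 10 kb in 100% of 294402 peaks above the genome background (tolerance 0.02 tags and rounding), and the −log10 p-value it gives differs from the deposited one by at most 0.00019. The genome background is the lowest local background of a library. Local background is known only at peaks. Matched depth recomputed the p-value at the lowest genome background.

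A gene or site was called higher when both libraries of a passage exceeded both of the other, beside exact two-sided permutation tests over libraries. The labels do not say whether replicates came from separate cultures or animals, so spreads may be technical. The named sites are the one with the highest P0 fold enrichment, the strongest P0-only site and every P8-only site of each gene. List genes are those with the highest and lowest ratio of covered length. The start sites, Col1a1, Acan, the densest windows, the clusters beside the genes and the other sites were added after their values were seen. The members and lists were chosen with earlier results of these data known, and so were the tests. The window counts were tested on simulated data, where 100% of 240 values were recovered. Scripts ran in Python 3.11.15 with pandas 2.3.3, scipy 1.17.1, numpy 2.4.6 and matplotlib 3.10.9.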

Additional observations from a re-analysis of the deposited data

How the results depend on the processing

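No paired analysis was possible because the peak names carry no replicate number. Leaving out 1 library at a time, the summed P0 to P8 ratio ran from 1.39 to 1.83 for peaks and from 2.03 to 2.71 for covered length, and the ratio of the mean highest fold enrichment, 1.09 with all libraries, from 1.01 to 1.18. Scaled to all peaks and all covered length of a library, the sums gave 1.13 and 1.41. By gene, the peak ratio turned round for Col2a1 (0.922) and Col9a3 (0.897) as shares, and for Col2a1 within 10 kb (0.818), in the gene body (0.25) and for peaks nearest to it (0.955), and the ratio of its mean covered length fell below 1 in the gene body (0.607), where the passages overlapped.

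The fold enrichment ratio changed direction with the window. It was 0.926 within 10 kb, 0.809 in the gene body, 0.92 for peaks nearest to the gene and 0.961 as the median over shared sites. It went from above to below 1 for Col11a2 (0.788, 0.778 and 0.778) and Col9a3 (0.885, 0.687 and 0.687) in the first 3 of these, and for Col2a1 (0.972) and Col9a1 (0.855) in the gene body. Over the genome background, summits gave 1.71 and local background 2.63, with Col11a1 (1.62 and 2.33) and Col9a2 (1.80 and 2.54) now above 1. These measures, and all settings of the local background, were chosen after seeing the data. The local background ratio was 2.27 in the gene body alone, 2.12 when each library was scaled by its median over all genes, and 2.41 to 2.89 leaving out a library, when the lowest of the 6 genes was within the top 0.731%.

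P0-only sites were 24 within 10 kb and 12 in the gene body, and 44 to 81 leaving out a library, 65 without P0 library A, 81 without P0 library B and 66 without P8 library B. P8-only sites were 9 at a reciprocal overlap of 50%, 0 at −log10 q of at least 5, 1 within 10 kb and 1 in the gene body, and 4 to 13 leaving out a library, 13 without P8 library A and 8 without P8 library B. The causes were not tested. A high local background raises the pileup that a peak needs, so that a missing peak inside Col2a1 carries little information, and with 2 libraries for each passage no exact test could pass 0.05.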
